A study of Drosophila melanogaster with 9 samples.

Results

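Odorant-binding proteins are a family of small soluble proteins, named Obp in Drosophila. Support cells secrete them into the fluid around the dendrites of smell and taste neurons, where some carry odorants, pheromones or tastants to the receptors or clear them away. Other members are made outside the sense organs, in glia, in the male reproductive tract or in tissues that release them into the haemolymph. The members were the genes whose single symbol in the platform annotation was Obp followed by a cytological band number, without Obp99b, and this gave 46 of the 11983 genes named by a probe set that matched 1 gene. Each gene was read from its brightest probe set over all arrays. Of the 46 members, 26 reached log2 4 on at least 3 of the 9 arrays and entered the tests, and 20 did not.

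The arrays were Affymetrix Drosophila Genome 2.0 arrays of head and thorax RNA from 10-day-old females of the Canton-S background, a laboratory wild-type strain. A restricted diet, a normal diet plus resveratrol (a plant polyphenol) and a normal diet each had 3 biological replicates, and each replicate was RNA of at least 75 pooled flies. The labels used here do not give what the diets held or how much resveratrol was added. All values below are the deposited log2 values, and a difference is in log2 units unless a fold is stated. A gene passed at a limma adjusted p under 0.05 over all 8822 features tested. The number of arrays limits the precision.

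Markers of the labelled tissue were present, and markers of some other tissues were too. The neuron, photoreceptor, glia, muscle and antenna lists had every marker with a probe set above the log2 4 limit on at least 3 arrays. The germline transcripts osk, aub, piwi and orb were above log2 4 on all 9 arrays, and vas was at the floor. The mean of the 6 germline and ovary markers ran from 6.31 to 7.45 on the restricted diet, from 5.07 to 7.11 with resveratrol and from 4.96 to 5.90 on the normal diet. The mean of the 7 midgut markers ran from 10.91 to 11.46 on the restricted diet, from 10.32 to 10.73 with resveratrol and from 8.46 to 10.06 on the normal diet. Npc2e and Jon25Biii carried most of this, averaging 12.49 and 13.79 on the restricted diet and 7.70 and 7.23 on the normal diet. The rises of mesh (8.24 against 7.55), Tsp2A, Ssk and Jon65Aiii were smaller, and Mip was lower (8.70 against 9.06). In such tissue pools, fewer cells of a type and less RNA per cell cannot be told apart.

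The 20 members that did not enter the tests came from several role groups. The 4 members grouped here under the male reproductive tract, Obp22a, Obp51a, Obp56f and Obp56i, did not pass the filter in these females. Their highest value on any array was 2.47. This group does not hold every member with a role in the male tract. Obp56g, which in males contributes to the mating plug, was grouped with the taste members and passed the filter. The 6 other male markers with a probe set did not pass the filter. None of the 10 Plus-C members besides Obp49a passed the filter. Plus-C proteins carry cysteines beyond those of the classic fold, and these were Obp46a, Obp47b, Obp50a, Obp50d, Obp50e, Obp58b, Obp58c, Obp58d, Obp85a and Obp93a. Obp57e, a taste member linked to host plant choice in Drosophila sechellia, had a highest value of 2.41. Obp47a, Obp56b, Obp56c and Obp73a stayed under 2.5 on every array. Obp99d stood at 2.33 on 8 arrays and at 3.56 on resveratrol replicate 2. A value at the floor says that the probes were not above the modelled background, not that the transcript was absent.

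**Figure D1:**
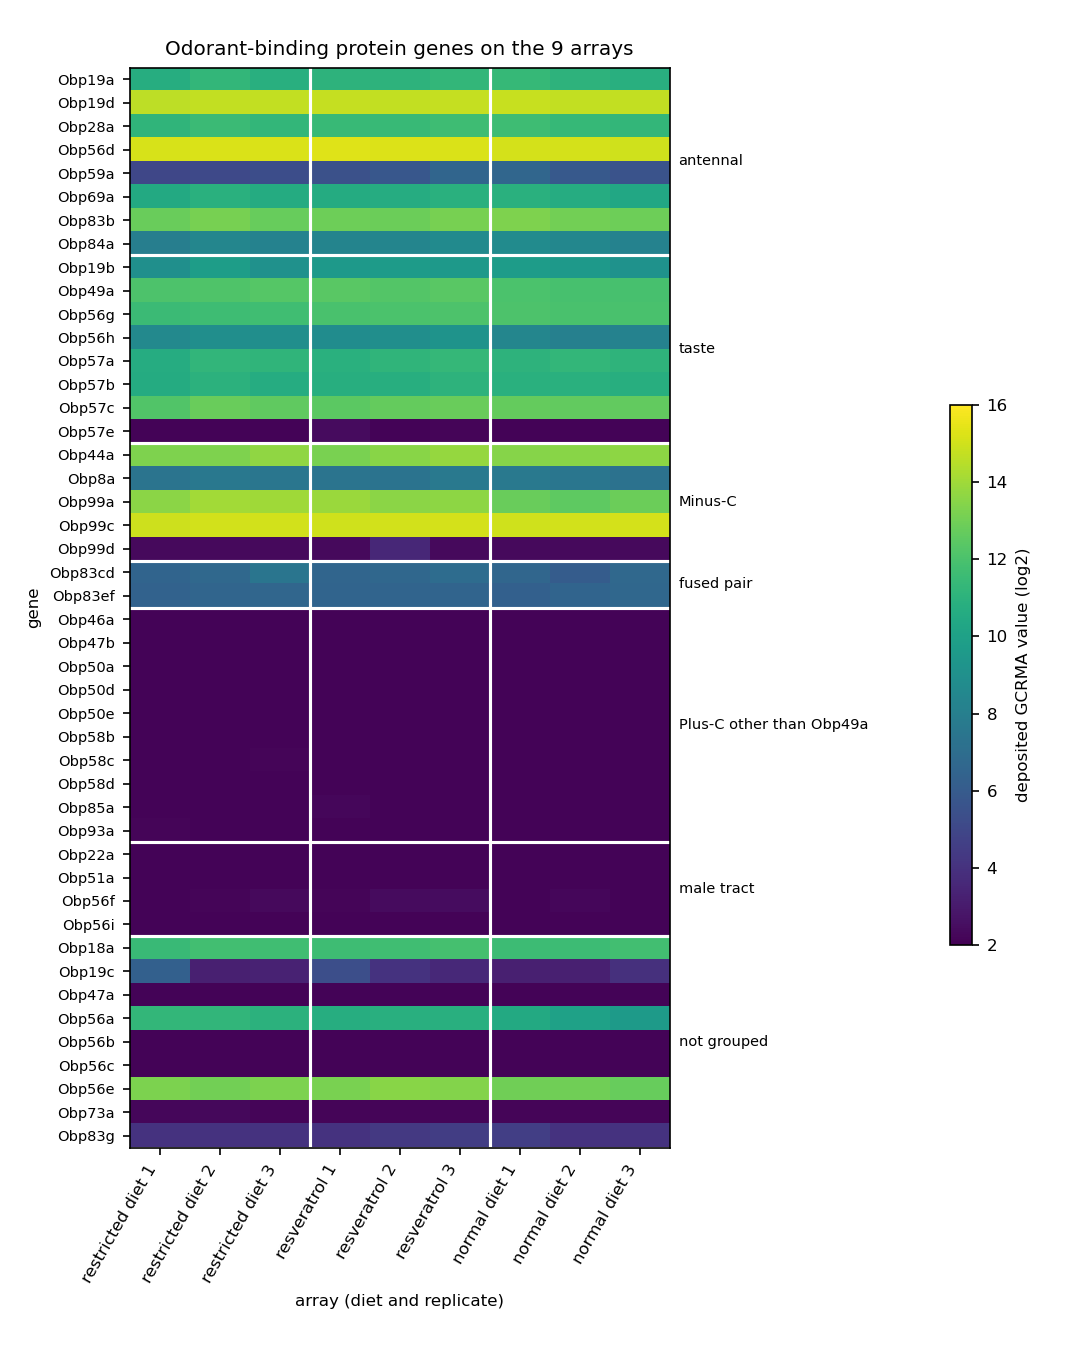
Deposited GCRMA value (log2, colour) of the 46 odorant-binding protein genes (rows, by known role or protein class) on the 9 arrays (columns, by diet and replicate). The 26 tested genes kept a similar colour across the diets, and the dark rows are mostly the 20 genes that did not enter the tests.

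The first comparison asked which members differ between restricted and normally fed flies. Obp99a, Obp56a and Obp56h rose and Obp56g fell, while no antennal member passed. These 4 calls among 26 members made 15.4%, against 18.2% of all features. By direction, 5.27% of all features rose and 12.9% fell. The median difference of the 26 members was -0.05, and that of all features was also -0.05. The values of the diets did not overlap for 8 of the 26 members, against 44.8% of all features. Of the 8, 6 were higher and 2 lower on the restricted diet, where 16.4% of all features were higher and 28.4% lower without overlap.

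Obp99a (CG18111, arm 3R) is a Minus-C member, a class that lacks a pair of the conserved cysteines. Its values were 13.57, 14.04 and 14.02 on the restricted diet, 13.90, 13.59 and 13.60 with resveratrol, and 12.79, 12.53 and 12.88 on the normal diet. All restricted-diet and resveratrol arrays lay above all normal-diet arrays. The mean was 13.88 ± 0.26 on the restricted diet and 12.73 ± 0.18 on the normal diet (SD, n = 3 each), a rise of 2.21-fold with a 95% interval of 1.72 to 2.84 (limma adjusted p = 0.00885). The other tested Minus-C members did not pass. Obp44a, a glial member that binds fatty acids, averaged 13.41 ± 0.21, 13.49 ± 0.32 and 13.54 ± 0.09 on the restricted diet, with resveratrol and on the normal diet. Obp99c differed by -0.03 between the restricted and the normal diet, with a 95% interval of -0.14 to 0.09. Obp8a lay between 7.27 and 7.67 on these 9 female arrays and differed by 0.02.

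The Obp56 genes held 3 of the 4 calls. In the Release 6 gene order Obp56a to Obp56f lie side by side, as do Obp56g and Obp56h. Of 9 Obp56 members, 5 were tested, and on the restricted diet 2 rose, 1 fell and 2 did not pass. Over all features 18.2% passed, with 5.27% higher and 12.9% lower. In the 9 fits with 1 array left out, the call of Obp56a held in 9, that of Obp56g in 8 and that of Obp56h in 4. Whether the Obp56 genes differ as a group was not tested.

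Obp56a (CG11797, arm 2R) stood at 11.24, 11.20 and 11.01 on the restricted diet, at 10.70, 10.81 and 10.84 with resveratrol, and at 10.49, 10.00 and 9.63 on the normal diet. The diets did not overlap, and the normal-diet arrays were spread the widest. Obp56a rose 2.16-fold on the restricted diet against the normal diet, with a 95% interval of 1.58 to 2.94 (limma adjusted p = 0.0136).

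Obp56h (CG13874, arm 2R), a member whose knockdown changes the cuticular hydrocarbons and mating of males, stood at 8.61, 8.94 and 8.92 on the restricted diet, at 8.82, 8.93 and 9.19 with resveratrol, and at 8.41, 8.08 and 8.20 on the normal diet. Every normal-diet array was below every other array. It rose 1.51-fold on the restricted diet against the normal diet, with a 95% interval of 1.21 to 1.87 (limma adjusted p = 0.0261). The call did not hold without normal-diet replicate 1, 2 or 3 (adjusted p = 0.0517, 0.0832 and 0.0530) or without restricted-diet replicate 2 or 3 (adjusted p = 0.0609 and 0.0744).

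Obp56g (CG13873, arm 2R), the neighbour of Obp56h, is found in taste organs and, in males, contributes to the mating plug. Its values were 11.54, 11.67 and 11.70 on the restricted diet, 11.97, 12.02 and 12.10 with resveratrol, and 12.08, 11.97 and 11.97 on the normal diet. The restricted-diet arrays lay below the other 6, and the resveratrol and normal-diet arrays overlapped. Obp56g fell by 0.37 on the restricted diet against the normal diet, with a 95% interval of -0.52 to -0.21 (limma adjusted p = 0.0145, and 0.0540 without normal-diet replicate 1). Without that array the count of members past the threshold was 2 in place of 4.

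Obp56d and Obp56e, which lie next to each other, had small positive differences. Obp56d, made in antennal and taste sensilla, averaged 15.19 ± 0.02 on the restricted diet and 15.06 ± 0.04 on the normal diet, a difference of 0.13 (adjusted p = 0.0956). Obp56e averaged 13.15 ± 0.13 on the restricted diet and 12.90 ± 0.14 on the normal diet, a difference of 0.26 (adjusted p = 0.139). For both genes the 3 restricted-diet arrays lay above the 3 normal-diet arrays without overlap.

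**Figure D2:**
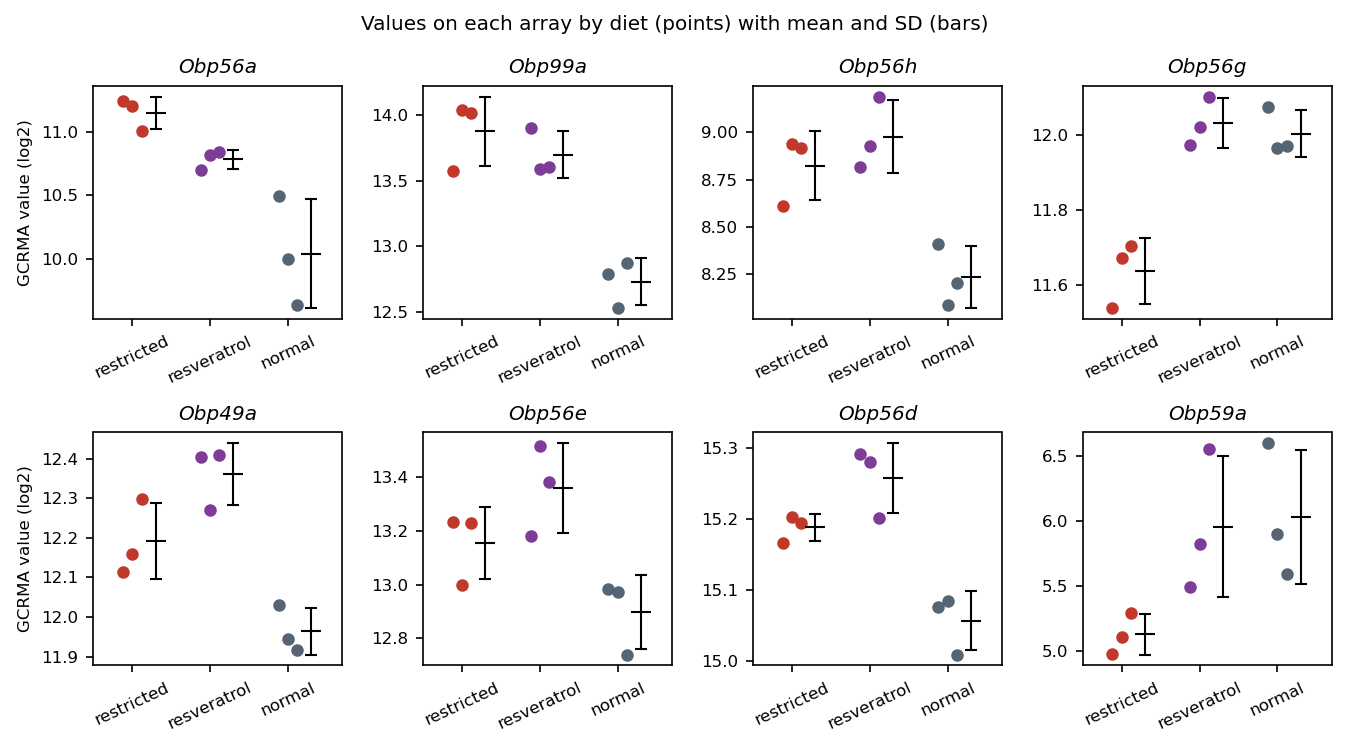
Deposited GCRMA values (log2) of 8 odorant-binding protein genes by diet, with a point for each array and a bar for the mean ± SD of 3 arrays; each panel has its own vertical scale. In Obp56a, Obp99a and Obp56h the normal-diet points lie below both other groups, and in Obp56g the restricted-diet points lie below both other groups.

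None of the 8 antennal members passed on the restricted diet, and 6 of the 8 differences were negative, as were 5187 of the 8822 over all features. The median of the 8 differences was -0.13. Obp59a, which the humidity sense of the antenna requires, had the widest difference. It stood at 4.98, 5.11 and 5.29 on the restricted diet, at 5.49, 5.82 and 6.55 with resveratrol, and at 6.60, 5.90 and 5.59 on the normal diet. The restricted-diet arrays lay below all others, with a difference of -0.90 from the normal diet and a 95% interval of -1.64 to -0.16 (adjusted p = 0.0831). Its second probe set was at the floor on all 9 arrays. Obp83b, also known as OS-E and linked to the ending of odour responses, differed by -0.21 (adjusted p = 0.289). Obp28a, abundant in the antenna, and Obp84a, of the coeloconic sensilla, differed by -0.12 and -0.29. Obp69a, linked to social behaviour through pheromones, differed by 0.01, with a 95% interval of -0.32 to 0.35. Obp19a differed by -0.13, and its second probe set also had a lower mean on the restricted diet, 10.00 ± 0.31, than on the normal diet, 10.19 ± 0.20. Obp19d, made in both smell and taste sensilla, differed by -0.07, with a 95% interval of -0.20 to 0.05.

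Within a diet many members were highest or lowest on the same array, at some arrays more than at others. Restricted-diet replicate 1 was the lowest of its diet for 22 of the 26 tested members, and resveratrol replicate 3 the highest for 20. The other ends were shared by fewer. Normal-diet replicate 1 was the highest for 16 and replicate 3 the lowest for 13. Restricted-diet replicate 2 was the highest for 14 and resveratrol replicate 1 the lowest for 15. The shares over all features were not computed. Among the antennal members, restricted-diet replicate 1 was the lowest of its diet for 7 of the 8 and replicate 2 the highest for 6. With resveratrol, replicate 3 was the highest for 6 of the 8. On the normal diet, replicate 1 was the highest for 7 of the 8 and replicate 3 the lowest for 7. The mean of 6 other antenna markers (Orco, lush, a5, a10, Os-C and Snmp1) took the same order at those ends. It was 8.53, 9.07 and 8.58 on the 3 restricted-diet arrays, 8.87, 8.95 and 9.19 on the resveratrol arrays, and 9.41, 9.09 and 8.88 on the normal-diet arrays. None of these 6 markers was at the floor, and their part in the differences between diets was not tested. Obp83b, Obp59a, Obp19d and Obp56d each departed from this order at some array; Obp56d and Obp19d, for example, were highest on resveratrol replicate 1.

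**Figure D3:**
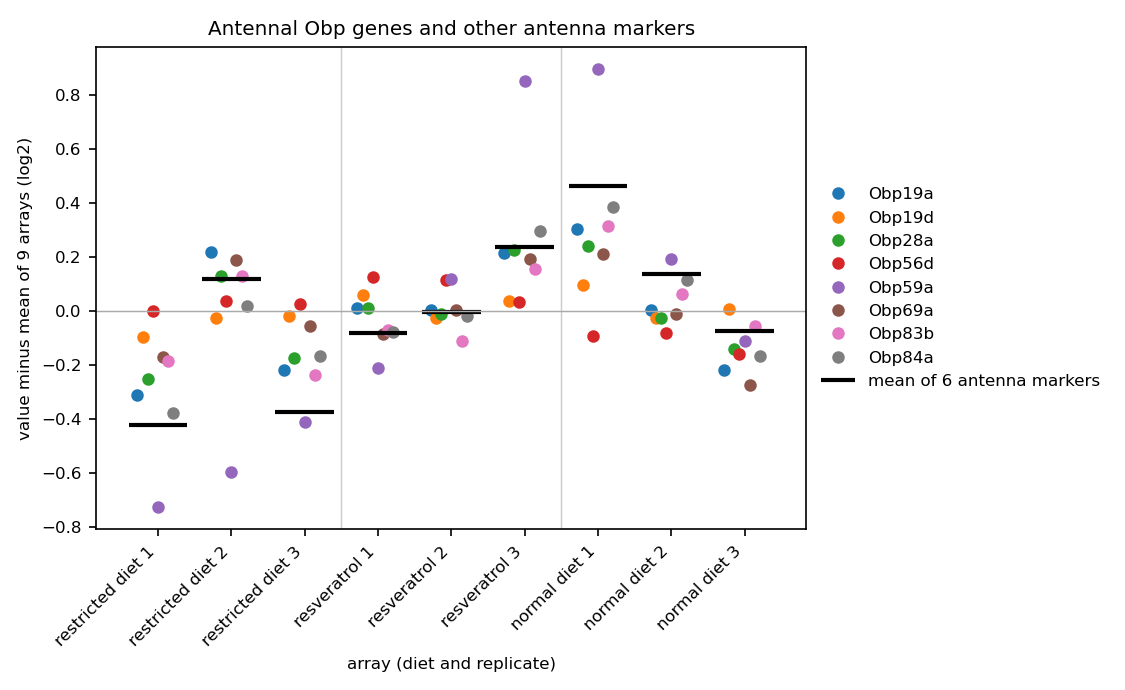
Value of each of the 8 antennal Obp genes (points) and the mean of 6 other antenna markers (black bars) on each array, as the difference in log2 units from that gene's or list's mean over 9 arrays. Restricted-diet replicate 1 lies low and normal-diet replicate 1 high for most of the genes and for the markers.

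Among the 8 taste members, 7 were tested, and apart from Obp56g and Obp56h none passed on the restricted diet. Obp49a, which binds bitter compounds and lets them suppress sweet taste, stood at 12.11, 12.16 and 12.30 on the restricted diet, at 12.40, 12.27 and 12.41 with resveratrol, and at 12.03, 11.95 and 11.92 on the normal diet. The normal-diet arrays were below all others, with a difference of 0.23 between the restricted and the normal diet (adjusted p = 0.0581). Obp19b, used in amino acid taste, averaged 9.28 ± 0.45 on the restricted diet and 9.49 ± 0.30 on the normal diet. The neighbours Obp57a, Obp57b and Obp57c differed by -0.14, -0.10 and -0.12, each with an interval that spans 0.

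The other members were low or did not pass. The proteins of Obp83cd and Obp83ef each hold a fused pair of Obp domains, and their genes differed by 0.44 (95% interval -0.16 to 1.04) and 0.03 between the restricted and the normal diet. Obp83g stood at its lowest value, 4.06, on 6 of 9 arrays, and it did not pass in any comparison. Obp18a averaged 11.65 ± 0.12 on the restricted diet and 11.66 ± 0.08 on the normal diet. Obp19c reached log2 4 on restricted-diet replicate 1 (6.30) and resveratrol replicates 1 and 2 (5.35 and 4.02) and on no normal-diet array. It entered the tests through those arrays, and its second probe set was at the floor on all 9.

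The second comparison asked which members differ between flies given resveratrol and flies on the normal diet alone. In limma 0 of the 26 members passed, where 0.227% of all features did (0.0453% higher and 0.181% lower), and 6 members had an unadjusted p under 0.05, as did 859 of the 8822 features. These were Obp49a, Obp56a, Obp56d, Obp56e, Obp56h and Obp99a. All 6 were higher with resveratrol without overlap, and no member was lower without overlap; among all features 6.35% were higher and 9.09% lower without overlap. The comparison shares its normal-diet arrays with the comparison above, so the values for the members are only set side by side. Obp99a differed by 0.97 with resveratrol and by 1.15 on the restricted diet, each against the normal diet. For Obp56h these differences were 0.75 and 0.59, and for Obp56a they were 0.74 and 1.11. Obp49a differed by 0.40 with resveratrol and 0.23 on the restricted diet, Obp56e by 0.46 and 0.26, and Obp56d by 0.20 and 0.13.

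The adjusted p values of these members lay above the threshold with resveratrol. Obp99a averaged 13.70 ± 0.18 with resveratrol and 12.73 ± 0.18 on the normal diet (SD, n = 3 each), a ratio of 1.95 with a 95% interval of 1.52 to 2.51 (limma adjusted p = 0.0746). Obp49a had a ratio of 1.32 with an interval of 1.18 to 1.47 (adjusted p = 0.0833). Obp56h had a ratio of 1.68 with an interval of 1.35 to 2.08 (adjusted p = 0.0937). Obp56d and Obp56e shared an adjusted p of 0.204, and that of Obp56a was 0.225. Obp56g differed by 0.03, with a 95% interval of -0.12 to 0.18. The antennal members had a median difference of 0.02, and 4 of 8 were positive.

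**Figure D4:**
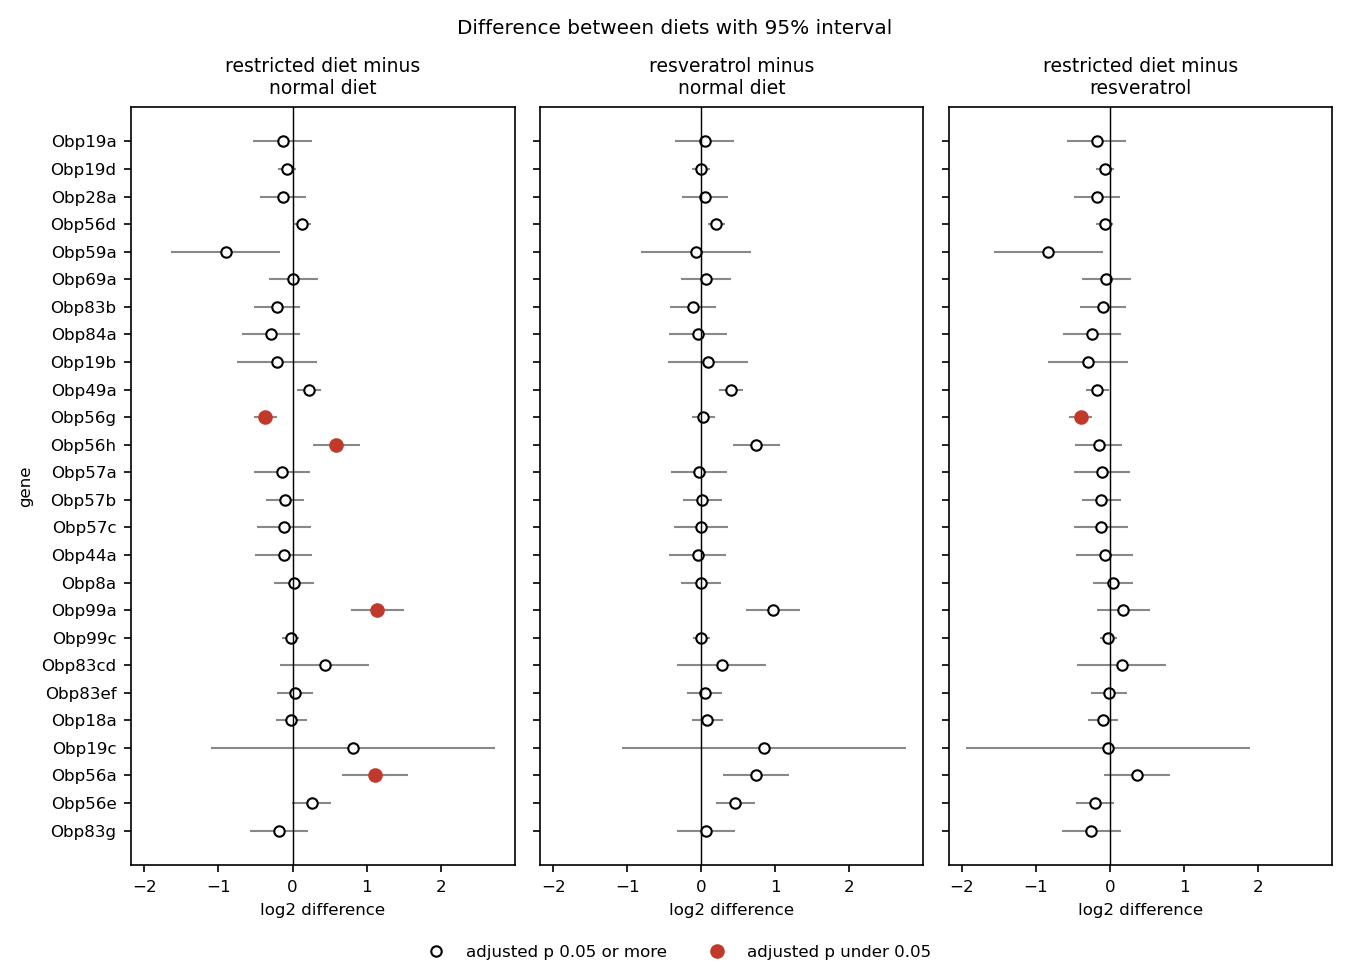
Log2 difference between diets for the 26 tested odorant-binding protein genes, with 95% intervals from the limma fit; filled red points have an adjusted p under 0.05. Obp99a, Obp56a, Obp56h and Obp56g are filled for the restricted diet against the normal diet, none for resveratrol against the normal diet, and Obp56g for the restricted diet against resveratrol.

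The restricted diet against resveratrol tests directly whether the members differ between these diets. Obp56g fell by 0.39, to 11.64 ± 0.09 on the restricted diet, against 12.03 ± 0.07 with resveratrol (SD, n = 3 each), with a 95% interval of -0.55 to -0.24 (limma adjusted p = 0.0413). This was 1 of 26 members, or 3.85%, against 2.54% of all features, of which 2.09% were lower. The call did not hold without restricted-diet replicate 1, 2 or 3 (adjusted p = 0.1003, 0.0529 and 0.0998), without resveratrol replicate 1, 2 or 3 (0.05004, 0.140 and 0.135) or without normal-diet replicate 1 (0.0694). Obp56a, the other Obp56 member without overlap, was higher on every restricted-diet array than with resveratrol, by 0.37 on average (95% interval -0.08 to 0.81, adjusted p = 0.267). Obp99a differed by 0.18 (95% interval -0.18 to 0.54) and Obp56h by -0.15 (95% interval -0.47 to 0.16). Obp59a differed by -0.83 without overlap (adjusted p = 0.164). The diets did not overlap for 3 of 26 members, 1 higher (Obp56a) and 2 lower (Obp56g and Obp59a) on the restricted diet, against 31.0% of all features, with 9.83% higher and 21.2% lower. In all, 22 of the 26 differences were negative, with a median of -0.10, where the median of all features was -0.04. The 26 signs are not independent, since many members were highest or lowest on the same array of a diet. Among all features 5122 of 8822 differences were negative. The mean of the antenna markers was lower on 2 of 3 restricted-diet arrays than on any resveratrol array, and the means of the neuron and photoreceptor markers were lower on all 3.

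Several marker lists differed between the restricted and the normal diet, in both directions. All 5 neuron markers and all 4 photoreceptor markers with a probe set fell on the restricted diet, as did 2 of 5 glia and 2 of 6 muscle markers. The neuron mean ran from 8.49 to 8.54 on the restricted diet, from 9.04 to 9.19 with resveratrol and from 9.00 to 9.22 on the normal diet. The photoreceptor mean ran from 10.92 to 10.96 on the restricted diet, from 11.28 to 11.39 with resveratrol and from 11.41 to 11.56 on the normal diet. Both lists were thus lowest on the restricted diet without overlap, as Obp56g and Obp59a were. Fat body markers averaged 13.23 to 13.42 on the restricted diet, 12.94 to 13.35 with resveratrol and 12.41 to 12.59 on the normal diet. Of the 6, 3 rose on the restricted diet, Fbp1 was at the floor and Yp1 stayed near the top of the scale (16.31 to 16.33). Lsp2 differed the most, averaging 14.11 on the restricted diet and 10.22 on the normal diet, while apolpp averaged 15.63 and 15.64. In the midgut list given above, 6 of 7 markers rose and 1 fell. No hemocyte marker passed, and their mean ran from 8.44 to 8.89 on the restricted diet, from 8.41 to 9.08 with resveratrol and from 8.70 to 9.13 on the normal diet. The part of the neuron, photoreceptor, glia, muscle, fat body and midgut markers in the Obp differences was not tested. With the mean of the germline markers as a covariate, none of the 4 members passed on the restricted diet against the normal diet. Obp99a then differed by 1.10 (adjusted p = 0.126), Obp56a by 1.24 (adjusted p = 0.131), Obp56h by 0.84 (adjusted p = 0.102) and Obp56g by -0.27 (adjusted p = 0.189). Without the covariate these differences were 1.15, 1.11, 0.59 and -0.37, so those of Obp56a and Obp56h were larger with it. Of the variance of that mean, 48.2% lay between diets. The covariate can thus also change the size or the precision of a difference between diets.

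Among genes that work beside the odorant-binding proteins, most receptors were not detected, and on the restricted diet Orco, Phk-3 and pdm3 fell and Cyp6w1 rose, where 18.2% of all features passed. Of 166 odorant, gustatory and ionotropic receptor genes, 3 entered the tests. Orco, the co-receptor of the odorant receptors, averaged 5.78 ± 0.32 on the restricted diet and 6.53 ± 0.33 on the normal diet and fell by 0.75 (adjusted p = 0.0432). Ir76a, an ionotropic receptor of the antenna, differed by -0.32 (adjusted p = 0.0715). Or43b held the same value, 4.02, on all 9 arrays, just above the filter, so its entry does not show that it was detected. Of 14 other antennal and perireceptor genes with a probe set, 12 were tested; 1 rose, 2 fell and 9 did not pass on the restricted diet. Cyp6w1, a cytochrome P450, rose by 0.83 (adjusted p = 0.0200), while Phk-3, a chemosensory protein, fell by 0.42 (adjusted p = 0.0306) and pdm3, a transcription factor of odour neurons, by 0.33 (adjusted p = 0.0483). nompA, a matrix protein of sensory bristles, differed by 0.37 (adjusted p = 0.0878). The odorant-binding protein lush, needed for the pheromone response and named without the Obp symbol, averaged 8.98 ± 0.26 on the restricted diet and 9.39 ± 0.27 on the normal diet (adjusted p = 0.137). With resveratrol against the normal diet, and on the restricted diet against resveratrol, 0 of these 15 tested genes passed in limma; 1 and 2 had an unadjusted p under 0.05, as did 859 and 2219 of the 8822 features.

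Members differed in how steady they were between arrays of a diet. The within-diet SD of the 26 had a median of 0.19, against 0.12 for all features, and was under 0.2 for 53.8% of them, against 77.0% of all features. The steadiest were Obp56d, Obp99c, Obp19d, Obp56g and Obp49a, with SDs of 0.04, 0.04, 0.05, 0.07 and 0.08. Obp56d, Obp99c and Obp19d were also the brightest members, averaging 15.06, 15.03 and 14.75 on the normal diet. Whether a high signal narrowed their spread was not tested. Obp19c (1.15), Obp59a (0.44), Obp83cd (0.36) and Obp19b (0.32) varied the most. In Obp99a the diet means spanned 1.15 with an SD of 0.21, and in Obp56a they spanned 1.11 with an SD of 0.26.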

How the data were processed

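The authors deposited 1 log2 value per probe set and array, computed with GCRMA, per the submitters' processing notes. Its version is not given in the sources used here, nor is the set of arrays normalized in 1 run. Values ran from 2.12 to 16.39, the range of a log2 scale. GCRMA models background from the probes' sequences, so values near the floor depend on that model. Per the labels, 5 µg of total RNA entered the labelling of each array. Of 18952 probe sets, 183 were controls and were not used. Of the others, 13647 named 1 gene and 13544 of those were found in the Release 6 gene table. Probe sets naming several genes (Obp50b with Obp50c, Obp57d with Cpr57A) were not read as members, and Obp83a was not analysed here. A probe set naming several genes could still enter the tests as a feature of its own. A probe set of Obp57d with Cpr57A did so and thus counts among all features. The Obp19d probe set carries the suffix of sets that can match several transcripts.

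A probe set entered where at least 3 arrays reached log2 4, and the highest mean stood for a gene. The fit (limma 3.58.1, R 4.3.3) took all 9 arrays and estimated 1 mean for each diet, and p values were adjusted by Benjamini-Hochberg over the 8822 features of each comparison. Intervals are 95% from the moderated fit. All tested members are named, and those that passed are given on every array, as are Obp49a and Obp59a, which were chosen after their values were seen. From other lists, called genes and up to 4 with the smallest p are named. The fit was tested on simulated data with independent noise for each gene and array. That test does not cover shifts that many genes of an array share. The labels state no pairing by replicate number. Of 9 pairs with the same number, 2 had deviations correlated above 0.1, and restricted-diet with resveratrol replicate 1 had 0.40. Deviations from a diet mean cancel out within the diet, so these correlations cannot decide whether numbers pair the arrays. In pairs of different diets and different numbers these correlations ran from -0.37 to 0.41. The high ones included restricted-diet replicate 2 with resveratrol replicate 3 (0.41) and with normal-diet replicate 1 (0.38). Normal-diet replicate 3 and resveratrol replicate 1 had 0.35. A block by replicate number does not cover such pairs. The members, lists and role groups were chosen with earlier results of these data known, and the role groups come from background knowledge.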

Additional observations from a re-analysis of the deposited data

How the results depend on the processing

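On the restricted diet against the normal diet, the 4 calls became 0 with the germline covariate, 7 at an adjusted p under 0.10, and 2 to 5 with 1 array left out. The count was 6 with limma's trend option and 6 with trend and robust, where Obp49a and Obp56d also passed. It was 5 with array weights, where Obp59a also passed, and 3 without a filter. The calls of Obp99a and Obp56a held in 22 of 23 alternatives each, that of Obp56g in 21 and that of Obp56h in 15, and no sign turned. The 23 include the looser threshold of 0.10, which could not undo a call. Without a filter Obp56h did not pass (adjusted p = 0.0819). With resveratrol against the normal diet, the count of 0 became 2 with limma's trend option, 2 with trend and robust, 5 with array weights (Obp49a, Obp56d, Obp56e, Obp56h and Obp99a) and 3 at an adjusted p under 0.10; all were higher, and it was 0 in each fit that left out an array. For the restricted diet against resveratrol, the count of 1 became 0 with quantile normalization, with median centring, without a filter, with only the 2 groups compared and with the germline covariate, and was 0 to 1 with 1 array left out. With the replicate block the counts were 3 for the restricted diet against the normal diet (Obp56h had an adjusted p = 0.0530), 0 for resveratrol and 0 for the restricted diet against resveratrol. The causes were not tested. Of the members, 20 of 46 did not rise above the filter, so differences in them were not detectable here.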
